A study of Mus musculus with 9 samples.

Results

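The thrombospondin family was followed in fetal mouse ventricle through every probe set that the array's platform annotation gives to Thbs1, Thbs2, Thbs3, Thbs4 or Comp. These 5 genes, out of 18193 with a probe set naming 1 gene, have 8 probe sets out of 45037 besides the controls: 2 for Thbs1, 3 for Thbs2 and 1 each for Thbs3, Thbs4 and Comp. A further probe set, 1421811_at, is annotated to Pald1 as well as to Thbs1, so its values are given but credited to neither gene. Thbs4 was selected on these same signals, chosen by its higher level in ventricles without Esrrg, so that difference is described here and not tested; the other genes were taken for their family membership.

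The study measured messenger RNA on 9 Affymetrix arrays of cardiac ventricles from male fetuses late in gestation (E18.5). The 3 genotypes of Esrrg, the gene for the orphan nuclear receptor ERRγ, had 3 arrays each: +/+ (here WT), +/- (HET) and -/- (KO). No drug or other treatment is named, and the strain and the making of the allele are not described in the sources at hand. The labels call the arrays biological replicates but also name 3 ventricles per sample, which leaves it unsettled whether RNA was pooled, and a p-value here reflects array-to-array spread.

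Thrombospondins are secreted, calcium-binding glycoproteins of the extracellular matrix that act on cells more than they build structure, and so are called matricellular. Thbs1 and Thbs2 form trimers and carry type 1 repeats, through which they meet the receptor CD36 and, for Thbs1, latent TGF-beta. Thbs3, Thbs4 and Comp form pentamers and lack those repeats. In the mouse heart Thbs4 is known to be induced by pressure overload and to take part in the endoplasmic reticulum stress response through Atf6.

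The brightest Esrrg probe set matched the labels, at 206 to 281 on WT arrays, 162 to 164 on HET arrays and 39.3 to 58.3 on KO arrays (KO minus WT -1.88 ± 0.20 on the log2 scale, limma, adjusted p = 0.00057). Signals are MAS5 values on a linear scale, and array medians ran from 36.6 to 45.9. All 10 cardiomyocyte markers were above the level used to set dim genes aside (a signal of 21.7). The arrays stood apart in their bacterial poly-A control probe sets: the log2 ratio of thr to dap was -0.67 to -0.43 on the 3 WT arrays and HET replicate 1 (array set 1) and -1.09 to -0.89 on HET replicates 2 and 3 and the 3 KO arrays (array set 2). No label names this partition. It puts all WT arrays in one set and all KO arrays in the other, so genotype and array set cannot be told apart between them except through the HET arrays, and the family's differences below are also given with array set as a block in the fit. That block rests on HET replicate 1 alone to link the sets. In bulk tissue, a lower signal from fewer cells of a type and from less RNA per cell cannot be told apart.

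Thbs4, an adhesive matrix protein of muscle, tendon and heart, was the member with the widest separation between genotypes. Its probe set 1449388_at read 325, 280 and 391 on the WT arrays, 429, 480 and 416 on the HET arrays and 796, 732 and 705 on the KO arrays. Every KO array lay above every HET array, and every HET array above every WT array. Mean signal (± SD, n = 3 arrays) was 332 ± 55.8 for WT, 442 ± 33.4 for HET and 744 ± 46.9 for KO, so KO stood at 224% of WT and HET at 133%. On the log2(signal + 16) scale KO was 1.14 ± 0.12 above WT (difference ± standard error from limma), the difference it was picked for. The same ordering of all 9 arrays was found in 77 of 45037 probe sets (0.171%), and since Thbs4 was chosen for its KO level nothing is read from that share.

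The HET level shares arrays with that choice, so the pairwise steps are given as values alone. HET was 0.41 ± 0.12 above WT and KO was 0.73 ± 0.12 above HET on the log2 scale. The place of HET between the other genotypes also uses the KO arrays on which Thbs4 was picked. A KO level picked as high raises the midpoint of WT and KO, and so lowers HET against it. The fit for Thbs4 is therefore given as a description and not as a separate test. HET lay 0.16 ± 0.11 below the midpoint of WT and KO, with a 95% interval of -0.39 to 0.06, and this did not pass (limma, adjusted p = 0.987 over all probe sets, of which 0 passed and 1980, or 4.40%, had an unadjusted p under 0.05). An equal log2 step for each lost copy lies inside the interval, but nothing is concluded from this because KO was part of the pick.

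Thbs4 was also described with the array sets taken into account. These fits reuse KO arrays on which Thbs4 was picked, so they are not separate evidence for its rise. The block, which links the sets through HET replicate 1 alone, gave a KO minus WT of 1.08 ± 0.22. Within array set 2, where KO and 2 HET arrays lie together, KO was 0.71 ± 0.10 above HET. The HET arrays of set 2 differed from HET replicate 1 by 0.06. Over the 21 alternative fits, leaving out each array included, KO minus WT ran from 1.03 to 1.26.

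Because ERRγ binds DNA at a single extended core motif, the start region of Thbs4 is printed with the letters searched. The window covers 250 bases before to 50 after the RefSeq start, chr13:92794769-92795068 of GRCm38.p6 on the minus strand, printed 5′ to 3′ with matches to the GC box GGGCGG, on either strand, in capitals:
Thbs4: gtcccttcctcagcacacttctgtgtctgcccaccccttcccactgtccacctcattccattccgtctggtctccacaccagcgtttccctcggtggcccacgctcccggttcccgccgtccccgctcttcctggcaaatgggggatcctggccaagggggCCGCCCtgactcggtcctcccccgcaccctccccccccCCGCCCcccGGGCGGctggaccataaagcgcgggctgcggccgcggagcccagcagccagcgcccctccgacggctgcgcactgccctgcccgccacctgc
It holds 3 such matches and is 72.0% G or C, against a median of 52.7% over 32851 windows of the same length, of which 35.7% hold the GC box. The ERR element TNAAGGTCA, its core AAGGTCA and the shorter nuclear receptor motif AGGTCA inside both, searched on both strands, have no match in it. Those letters occur in 1.28%, 4.72% and 16.3% of all windows, and no match says only that they are not in these 300 bases.

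**Figure D1:**
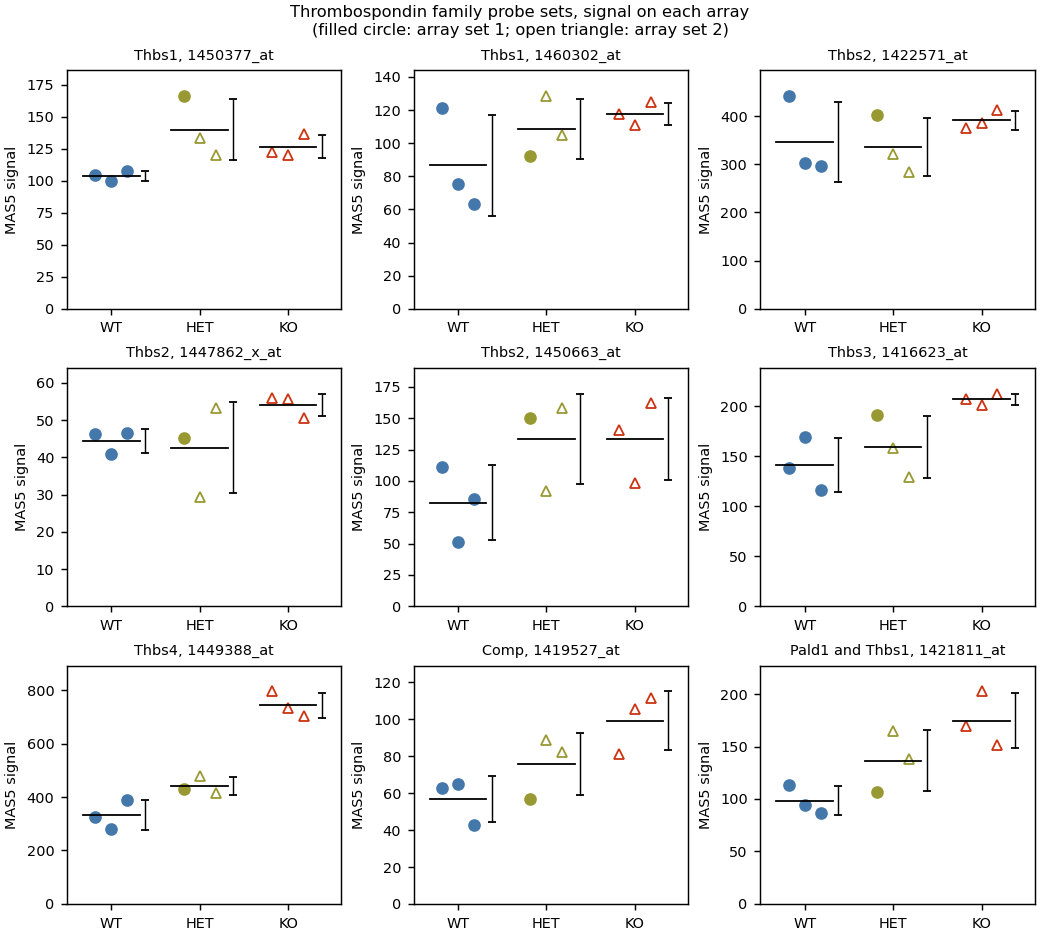
MAS5 signal (linear axis from 0) of each thrombospondin family probe set on each array, by genotype, with filled circles for array set 1 and open triangles for array set 2. Horizontal bars are means and vertical bars ± 1 SD of 3 arrays; Thbs4 separates all genotypes (332, 442 and 744), while in most other panels WT and HET overlap.

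The other pentameric members also had higher means in KO than in WT, and neither difference passed the test. Thbs3, studied mainly in skeletal growth and in mouse heart muscle, read 138, 170 and 116 for WT, 191, 158 and 129 for HET and 207, 202 and 213 for KO. The KO arrays were all above the others and close together, and WT and HET overlapped. Its KO mean of 207 ± 5.46 was 147% of the WT mean of 141 ± 26.9. The log2 difference was 0.52 ± 0.18 with a 95% interval of 0.13 to 0.91, and it did not pass over all probe sets (limma, adjusted p = 0.24).

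The Thbs3 difference was larger with the block, 0.90 ± 0.31, and still did not pass (limma, adjusted p = 0.805). Within array set 2, KO was 0.49 ± 0.16 above HET (adjusted p = 0.915, where 0 of 45037 probe sets passed). HET was 0.16 ± 0.18 above WT, inside the spread between arrays. The printed start region of Thbs3, chr3:89214930-89215229 of GRCm38.p6 on the plus strand, is shown for comparison with that of Thbs4, with its 1 GC box in capitals and no ERR element, core or shorter motif:
Thbs3: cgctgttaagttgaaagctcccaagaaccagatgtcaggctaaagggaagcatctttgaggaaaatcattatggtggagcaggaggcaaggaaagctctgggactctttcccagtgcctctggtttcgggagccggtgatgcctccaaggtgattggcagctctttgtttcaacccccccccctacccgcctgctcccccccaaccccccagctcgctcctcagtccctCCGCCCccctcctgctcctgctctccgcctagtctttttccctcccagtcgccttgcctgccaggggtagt

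Comp, the cartilage oligomeric matrix protein that binds collagen in cartilage and tendon, had its highest mean in KO. It read 62.7, 64.95 and 42.5 for WT, 57.0, 88.5 and 82.3 for HET and 81.2, 105 and 111 for KO. KO lay above WT on every array, and HET replicate 1 lay among the WT arrays while the other HET arrays lay nearer KO. KO minus WT was 0.67 ± 0.27 (95% interval 0.10 to 1.24; limma, adjusted p = 0.328). Its HET arrays lay apart by array set. Those of set 2 were 0.47 above HET replicate 1, and with array set as a block KO minus WT was 0.19 ± 0.47 (limma, adjusted p = 0.972).

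None of the trimeric members' probe sets passed the test. Thbs1, an inhibitor of vessel growth and an activator of latent TGF-beta, has 2 probe sets of its own. Probe set 1450377_at read 105, 99.6 and 107 for WT, 166, 134 and 120 for HET and 122.9, 120 and 137 for KO. Both mutant genotypes lay above WT on every array, and HET overlapped KO. KO minus WT was 0.25 ± 0.19 and HET minus WT 0.37 ± 0.19 (limma, adjusted p = 0.693 and 0.615), with HET the highest of the genotype means.

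Probe set 1460302_at read 121, 75.2 and 63.5 for WT, 92.4, 129 and 105 for HET and 118, 111 and 125 for KO. WT replicate 1 lay among the KO arrays. KO minus WT was 0.42 ± 0.24 (95% interval -0.09 to 0.93; limma, adjusted p = 0.547). The array-set block moved the 2 probe sets of Thbs1 in opposite directions, to 0.60 ± 0.33 for 1450377_at and 0.13 ± 0.43 for 1460302_at.

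The probe set that names both Pald1 and Thbs1 read 114, 94.2 and 87.1 for WT, 107, 165 and 138 for HET and 170, 203 and 152 for KO. KO lay above WT on every array, by 0.74 ± 0.20, and did not pass (limma, adjusted p = 0.121). As with Comp, HET replicate 1 was the low HET array, 0.44 below the others, and with array set as a block the difference was 0.29 ± 0.34. Its signal cannot be assigned to either gene from the annotation.

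Thbs2, which is known to limit vessel growth and to shape collagen fibrils, has 3 probe sets. Probe set 1422571_at read 442, 302 and 296 for WT, 402, 321 and 285 for HET and 376, 385 and 413 for KO. WT replicate 1 was the highest array of all, so the genotypes overlapped, and KO minus WT was 0.19 ± 0.16 (limma, adjusted p = 0.713). Probe set 1450663_at read 111, 51.3 and 85.7 for WT, 150, 92.2 and 158 for HET and 140, 98.1 and 162 for KO. Its HET and KO means were nearly equal (133.5 ± 36.1 and 134 ± 32.7, each 162% of WT), and KO minus WT was 0.62 ± 0.27 (limma, adjusted p = 0.375).

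The third, 1447862_x_at, was dim, at 40.8 to 46.4 in WT, 29.4 to 53.4 in HET and 50.5 to 56.1 in KO. KO minus WT was 0.21 ± 0.32 (limma, adjusted p = 0.875). Under the array-set block the Thbs2 differences were 0.58 ± 0.25, 0.90 ± 0.49 and 0.34 ± 0.58 for 1422571_at, 1450663_at and 1447862_x_at. The start region of Thbs2, chr17:14694213-14694512 of GRCm38.p6 on the minus strand, also held none of the ERR letters, while that of Thbs1 and of Comp was not used here.

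**Figure D2:**
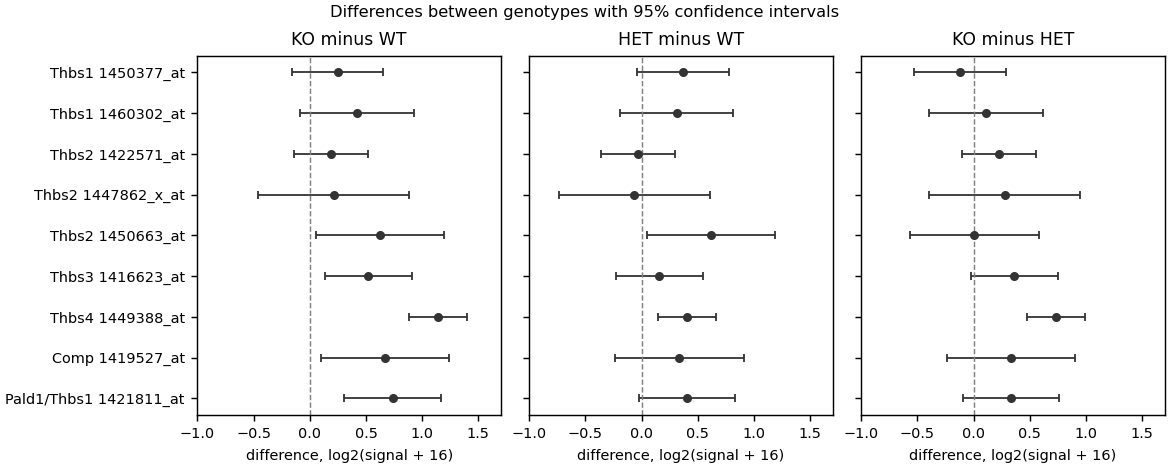
Differences in log2(signal + 16) between genotypes for each probe set, with 95% confidence intervals from limma over all 9 arrays. In KO minus WT all points lie right of 0, from 0.19 for Thbs2 to 1.14 for Thbs4, and in the other panels most intervals cross 0.

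None of the 7 family probe sets besides Thbs4 passed in any comparison at an adjusted p under 0.05 over 45037 probe sets. Thbs4 is left out of these counts, since it was picked for its KO minus WT difference. Between KO and WT, 0 of 7 passed where 0.298% of all probe sets did, and 3 of 7 had an unadjusted p under 0.05 (Thbs3, Comp and 1450663_at of Thbs2) where 11.6% of all did. All 7 were higher in KO, with a median log2 difference of 0.42, beside 48.5% of all probe sets being higher and a median of -0.01. In 4 of 7 every KO array lay above every WT array, against 8.78% of all probe sets. These 7 probe sets stand for 4 genes, and those of Thbs1 or of Thbs2 share a target, so they are not separate observations.

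The HET arrays were compared with each of the other genotypes in the same way. Between HET and WT, 5 of 7 were higher (51.5% of all probe sets were), 1 had no overlap between arrays (5.88% of all, upward), 0 passed (0% of all probe sets; 3903, or 8.67%, had an unadjusted p under 0.05, as 1 of the 7 did), and the median was 0.31. With array set as a block this difference is that of HET replicate 1 alone from the WT arrays. All 7 were then higher in HET, by 0.017 (1447862_x_at of Thbs2) or more, with a median of 0.23. Between KO and HET without the block, 6 of 7 were higher (46.9% of all) with a median of 0.22, and 1 had no overlap (4.37% of all, upward). In that fit 0 passed (0.00444% of all), and 0 had an unadjusted p under 0.05 against 4.44% of all. The intervals are wide: for Thbs3 KO minus HET the 95% interval ran from -0.02 to 0.75, which includes a difference as large as that of Thbs4. These comparisons share arrays with KO minus WT.

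**Figure D3:**
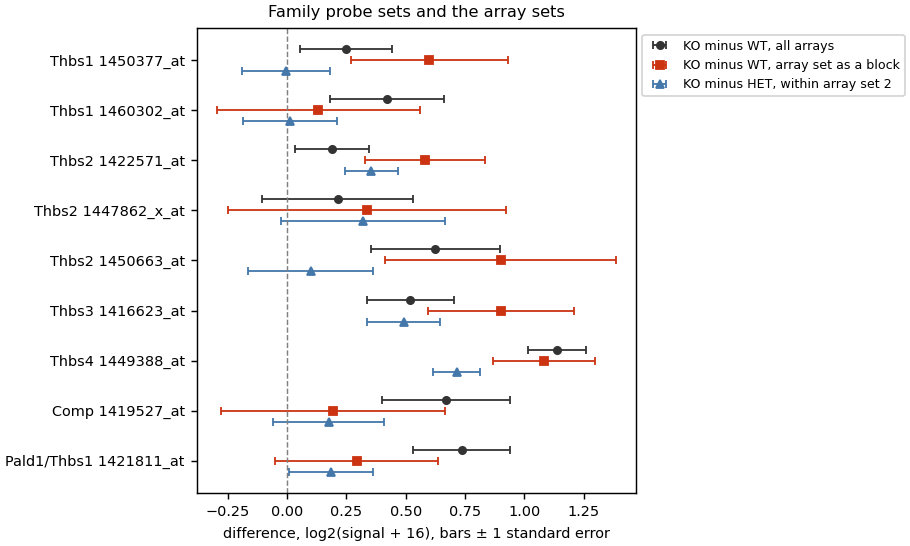
KO minus WT over all arrays (circles), KO minus WT with array set as a block (squares) and KO minus HET within array set 2 (triangles) for each probe set, in log2(signal + 16) with bars of ± 1 standard error. Thbs4, picked for its KO minus WT difference, is at 1.08 with the block and 0.71 within the set. Comp is at 0.67 over all arrays, 0.19 ± 0.47 with the block and 0.18 ± 0.23 within the set. The values within the set compare KO with HET, so they are not set against KO minus WT.

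Under the block, which links the sets through HET replicate 1 alone, all 7 remained higher in KO than WT, with a median of 0.58. Of these, 0 passed (0.00222% of all probe sets did, which is 1 probe set). Within array set 2, KO minus HET was 0.49 ± 0.16 for Thbs3 and 0.18 ± 0.23 for Comp. For Thbs2 it was 0.35 ± 0.11 (1422571_at), 0.32 ± 0.35 (1447862_x_at) and 0.10 ± 0.26 (1450663_at). For Thbs1 it was -0.0037 ± 0.18 (1450377_at) and 0.01 ± 0.20 (1460302_at). None of these passed, and the spread of several covers the values of others.

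The genes whose values were most like those of Thbs4 over the 9 arrays were sought by the root-mean-square difference of log2 values, each gene centred on its own mean. The distance was 0.204 for Zbtb14, a zinc finger transcription factor, and 0.211 for Nsmaf, an adaptor of the TNF receptor. It was 0.224 for Dcp1b, a factor of mRNA decapping, and 0.229 for Acss1, the mitochondrial acetyl-CoA synthetase. Gli2, Mreg, Enpep and Ntm followed, up to 0.241. The median distance over all genes was 0.542. Dcp1b, for one, had mean signals of 140 ± 7.06 in WT, 205 ± 16.2 in HET and 263 ± 10.1 in KO. Averaging all probe sets of a gene gave smaller KO minus WT differences for Zbtb14 (0.25 in place of 0.76) and Dcp1b (0.21 in place of 0.85). These genes were chosen for following Thbs4, so their difference between KO and WT is set by that choice. None of the other thrombospondins was among them.

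**Figure D4:**
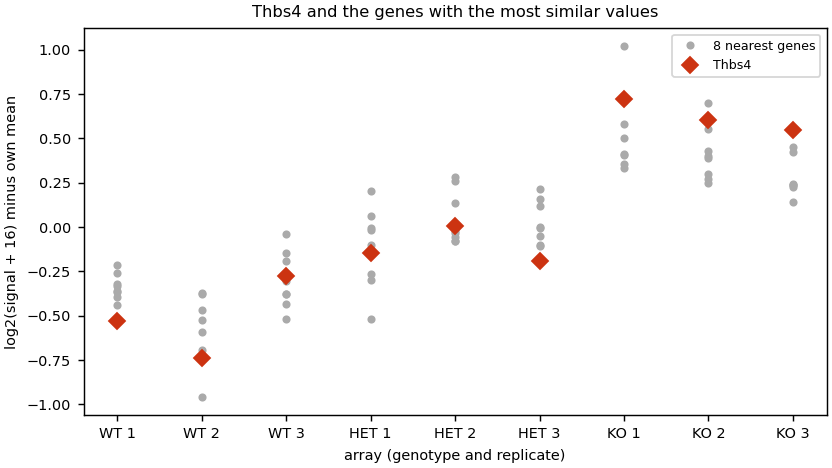
log2(signal + 16) minus each gene's own mean, on each array, for Thbs4 (red diamonds) and the 8 genes nearest to it (grey points). Thbs4 lies lowest on WT replicate 2 and highest on the KO arrays, and the grey points follow within a root-mean-square difference of 0.241.

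The genes around the thrombospondins were described by counts against all 13028 genes tested at the gene level, where 1.62% were called between KO and WT (0.737% higher, 0.883% lower), 48.4% were higher and the median difference was -0.0092. Of 21 receptors and binding partners tested, 11 were higher, 10 lower and 0 called, with a median of 0.01. Itgav, the integrin alpha V chain, had mean signals of 388 ± 49.0 in WT and 504 ± 33.7 in KO (log2 difference 0.37 ± 0.13, limma, adjusted p = 0.138). Scarb1, a lipoprotein receptor related to CD36, was at -0.57 ± 0.16 (adjusted p = 0.0843), Sirpa at 0.42 and Cd47, the receptor of the thrombospondin C terminus, at -0.22. The block gave 0.01 for Cd47 and 0.13 for Itgav, and averaging its probe sets gave 0.03 for Itgav.

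Of 21 other matricellular genes 12 were higher, 9 lower and 0 called, with a median of 0.09. Sparc, a collagen-binding protein, was at -0.18, the tenascin gene Tnc at 0.41, the periostin gene Postn at 0.13 and the fibulin gene Fbln1 at 0.20. None of these passed (limma, adjusted p from 0.175 for Sparc to 0.353 for Fbln1), and with probe sets averaged Sparc was at 0.0080 and Tnc at 0.03. Genes that carry type 1 repeats, outside the family itself, were higher in 21 of 30 cases, with a median of 0.21, and in 12 of 30 with array set as a block, where the median was -0.11. The only gene called was Spon1, the F-spondin gene, which rose from 595 ± 76.6 to 844 ± 30.7 (0.50 ± 0.12, limma, adjusted p = 0.0446). Its difference was 0.44 ± 0.20 with array set as a block and 0.21 with its probe sets averaged. Next by p were Adamts5 at -0.52 ± 0.16, Adamtsl5 at 0.54 ± 0.18 and Adamtsl1 at 0.94 ± 0.37. None of these passed (limma, adjusted p of 0.11, 0.13 and 0.198). With their probe sets averaged they were at -0.036, 0.35 and 0.28, and with the block at -0.27, 0.21 and -0.23. Adamtsl1 was dim, with a mean signal of 26.4 in WT.

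Among TGF-beta ligands, latency proteins and targets, whose latent complex Thbs1 can open, 15 of 19 were higher, with a median of 0.13 (0.19 with the block, where 12 were higher). The 4 lower genes included the ligand gene Tgfb1, at -0.28 ± 0.14 (limma, adjusted p = 0.323) and -0.29 with the block. Ltbp1, which holds latent TGF-beta in the matrix, rose from 110 ± 22.9 to 204 ± 27.8 (0.82 ± 0.19, limma, adjusted p = 0.0446; 0.55 ± 0.33 with the block). Its relative Ltbp3 was at 0.60 ± 0.16 (adjusted p = 0.0747), the receptor gene Tgfbr1 at 0.65 ± 0.19 (adjusted p = 0.0934; -0.0087 with the block) and the signal transducer Smad2 at 0.46 ± 0.13 (adjusted p = 0.0852; -0.04 with its probe sets averaged).

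Of 27 genes of the ATF6 branch and of endoplasmic reticulum chaperones, 15 were higher, 12 lower and 0 called, with a median of 0.05. Atf6 itself, the stress sensor to which Thbs4 binds in mouse heart cells, had mean signals of 247 ± 20.0 in WT and 317 ± 12.8 in KO (0.34 ± 0.13, limma, adjusted p = 0.183). The chaperone gene Canx was at 0.25 (adjusted p = 0.136), the transcription factor Xbp1 at 0.21 (0.172) and the secreted stress protein gene Manf at -0.21 (0.144). With array set as a block Canx was at 0.15, Xbp1 at 0.056, Manf at -0.091 and Atf6 at 0.53. With probe sets averaged Canx was at 0.22 and Xbp1 at 0.039. Of 22 integrin, dystrophin and sarcolemma genes, 14 were higher with a median of 0.03, and Lamb1, a laminin chain, rose (0.57 ± 0.14, limma, adjusted p = 0.0483). Lamb1 was 0.08 with the array-set block and -0.04 when its probe sets were averaged, so its probe sets disagree. The vinculin gene Vcl was at 0.20, the sarcoglycan gene Sgca at -0.33 and the integrin-linked kinase gene Ilk at -0.15, and none of these passed (limma, adjusted p of 0.224, 0.191 and 0.304).

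No gene of these lists was called between HET and WT (0% of all genes) or between KO and HET (0.0154% of all genes).

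The gene-level calls between KO and WT depended on single arrays. Apart from the genes nearest to Thbs4, 7 called genes are named: Spon1, Ltbp1, Lamb1, Lum, Kdr, Nppa and Myl1. Of these 7 none stayed called without WT replicate 2, WT replicate 3, KO replicate 1 or KO replicate 2, or with array set as a block (0.00768% of all genes called), 1 without KO replicate 3 and 4 without WT replicate 1, while all 7 kept their direction in each of these fits.

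**Figure D5:**
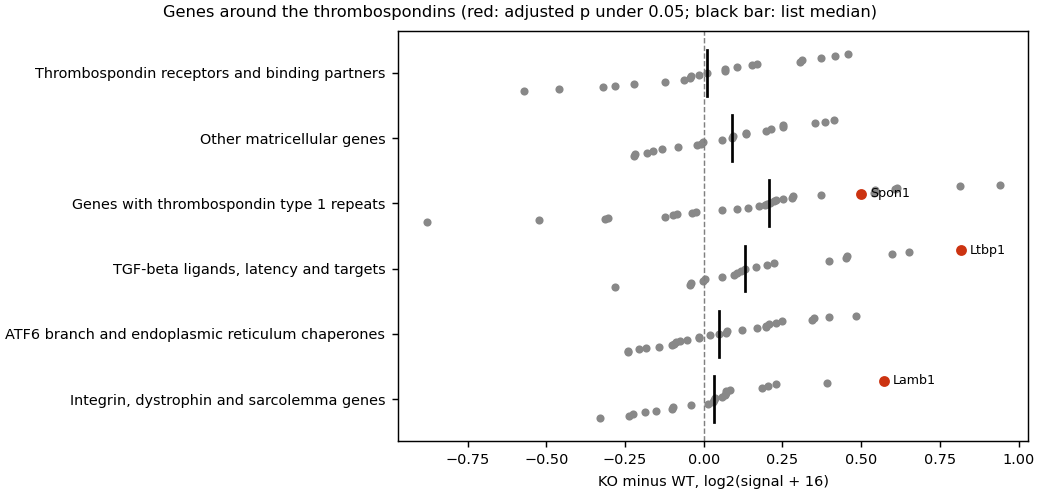
KO minus WT difference in log2(signal + 16) of each tested gene in 6 lists (points), with genes at an adjusted p under 0.05 in red and the list median as a black bar. Medians lie between 0.01 for receptors and 0.21 for genes with type 1 repeats, and the called genes are Spon1, Ltbp1 and Lamb1.

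Markers of cells that can make thrombospondins were measured beside the family, and their part in the result was not tested. Of 8 fibroblast markers 7 were higher in KO (median 0.18), and Lum, the lumican gene, rose (0.33 ± 0.08, limma, adjusted p = 0.0482); their summed signal was 28510 to 33180 in WT and 31810 to 34110 in KO, which overlap. Of 7 tested tendon, cartilage and valve markers 5 were higher and 0 called, with summed signals of 648 to 832 in WT and 704 to 906 in KO. The tendon gene Tnmd and the cartilage genes Col2a1, Matn3 and Chad were under the level for dim genes. Of 6 tested platelet markers 4 were higher and 0 called, with sums of 599 to 656 in WT and 585 to 739 in KO.

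Cardiomyocyte markers were lower in 8 of 10 cases and 0 were called, and their summed signal was lower on every KO array (161700 to 176600) than on every WT array (180800 to 193500). Their median with the block was 0.04 in place of -0.15. Of 10 tested skeletal muscle markers 7 were higher (median 0.20), and Myl1, a myosin light chain of fast muscle, rose from 1367 ± 383 to 2934 ± 679 (log2 difference 1.10 ± 0.19, limma, adjusted p = 0.0215; 0.59 ± 0.30 with array set as a block). The skeletal muscle genes Myog, Actn3, Tnnt3 and Tnnc2 were under the level for dim genes. Of 6 endothelial markers 2 were higher and Kdr, a VEGF receptor, fell by 0.74 on the log2 scale (limma, adjusted p = 0.0262; -0.25 with array set as a block). Of 6 atrial markers 3 were higher and Nppa rose (0.24 ± 0.06, limma, adjusted p = 0.0459). Smooth muscle, macrophage, erythroid and epicardial lists held 0 called genes, with medians of 0.24, 0.08, 0.14 and 0.15.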

How the data were processed

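Per the labels, RNA was column-extracted from ventricles kept in a preserving solution, and 6 µg was made into biotinylated cRNA. The deposited values are MAS5 signals, an intensity per probe set on a linear scale (the submitters' processing notes name MAS5, without a version). The mean of each deposited column without its top and bottom 2% was 200, so arrays share a scaling. Background was not measured here, and an error in it would weigh most on dim genes.

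A pseudocount of 16 was added before taking log2, so changes of dim genes are understated. Symbols came from the platform annotation, updated by gene ID through RefSeq (GRCm38.p6), which matched 34741 of 34945. One limma model (limma 3.58.1, R 4.3.3) held a mean per genotype over 9 arrays, with eBayes moderation following intensity. Tests were two-sided, and p-values of the family were adjusted by Benjamini-Hochberg over 45037 probe sets. For the lists it ran over 13028 genes, each with its brightest probe set and a mean at or above the 40th percentile, 5165 genes being left out. All 8 family probe sets were above that level. The array sets were cut at the widest gap in the thr to dap ratio. The members, lists, array sets and alternatives were chosen with earlier results of these data known. Named genes were the members, the 8 nearest to Thbs4, called list genes, up to 4 per pathway list with the smallest p, and bright or called markers. The number of arrays limits the precision. Promoter windows are from RefSeq (3 of 5 genes matched). The fit was tested on simulated data. Figures were drawn with matplotlib 3.10.9.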

Additional observations from a re-analysis of the deposited data

How the results depend on the processing

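With 9 arrays, differences in dim genes are limited by signal over background. Among the 7 family probe sets besides Thbs4, 0 were called and all kept their KO minus WT direction under the alternatives run. Thbs4 KO minus WT ran from 1.03 to 1.26 over 21 alternatives. With array set as a block it was 1.08 ± 0.22, which describes the picked difference and is not a test of it. The brightest Esrrg probe set kept its fall but no longer passed without the intensity trend (-1.88) or with array set as a block (-1.89).

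Several differences changed sign, that of Lamb1, which was called, among them, and the cause was not tested. With array set as a block, HET minus WT became 0.23 (Thbs2 1422571_at) and 0.017 (Thbs2 1447862_x_at), and KO minus WT became 0.011 for Cd47, 0.082 for Sparc, -0.23 for Adamtsl1 and -0.0087 for Tgfbr1. Leaving out arrays in turn, HET minus WT ran from -0.16 to 0.15 for Thbs2 1422571_at and from -0.20 to 0.11 for 1447862_x_at, and KO minus HET from -0.21 to 0.19 for 1450663_at. Without HET replicate 1 and WT replicate 3 together, Thbs3 HET minus WT was -0.092. Averaging all probe sets of a gene, KO minus WT was 0.0080 for Sparc, -0.036 for Smad2 and -0.042 for Lamb1. Of 36 genes named from the lists or nearest to Thbs4, 19 moved by over 1.5 times with probe sets averaged and 23 with the array-set block.

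The number of genes called moved more. Between KO and WT it was 211 (96 higher, 115 lower). It was 24 with arrays shifted to one median on the log2 scale, 6 without the trend, 612 with array quality weights, 773 with only the 6 arrays compared, 127 with the replicate block, 1 with the array-set block, 441 without HET replicate 1 and WT replicate 3, 85 without a filter and 7 with the mean of probe sets. Leaving out 1 array gave 10 (WT replicate 3) to 840 (HET replicate 1). Between HET and WT, 0 became 9 with weights, 1 with the replicate block, 2 with the array-set block and 230 without those arrays, and ran from 0 to 574 (without HET replicate 1) leaving out 1. Between KO and HET, 2 became 0 with shifted medians, without the trend, with only the 6 arrays, without those arrays and with the mean of probe sets, and ran from 0 to 3 (without WT replicate 3) leaving out 1. The replicate block changed no family call, and 2 of the 7 called list genes named stayed called with it; same-numbered replicates did not deviate together (r -0.043 to 0.046 over 9 pairs, 0 above 0.1).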
